A study of Drosophila melanogaster with 4 samples.

Results

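Peaks of the TATA-binding protein (TBP) were examined at 3 loci that carry early patterning genes of the Drosophila melanogaster embryo: hunchback (hb), tailless (tll) and caudal (cad). A fixed window was set around each gene on FlyBase release 5: 3R 4505000 to 4535000 for hb (30 kb), 3R 26665000 to 26690000 for tll (25 kb) and 2L 20760000 to 20795000 for cad (35 kb). Every peak that overlapped a window by at least 1 bp was taken. This gave 5 peaks of the 7769 in the deposited list: 2 at hb, 1 at tll and 2 at cad. The windows were given by position. Whether each holds its gene could not be checked against an annotation of the same release, and the peaks are not tied here to any gene or start site.

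The list comes from chromatin immunoprecipitation and sequencing (ChIP-seq) with a rabbit polyclonal antiserum raised against Drosophila TBP. It covers 4 libraries, 2 of immunoprecipitated DNA and 2 of input DNA. All 4 carry the same labels: strain Exd-GFP-13T, genotype w; PBac{y[+]-attP-3B}VK00033, embryos of 0 to 8 h and unknown sex. The transgene is the genomic coding region of extradenticle, a homeodomain gene, ending in GFP instead of its stop codon. If the labels hold, the input embryos carried it too and there is no strain without it. The extraction text names another strain (y; bw cn sp) and a collection of 8 to 16 h. This conflict could not be resolved. It bears on these loci because all 3 genes are best known for their part in patterning the early embryo. Read depth is unknown and the list has no values per library, so no value below has a replicate error and no test was made. Whole embryos were used. Fewer nuclei carrying TBP at a site and less TBP per nucleus therefore cannot be told apart at any of the 3 loci.

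TBP is the subunit of the general transcription factor TFIID that binds the TATA element of core promoters. hb encodes a zinc-finger repressor and activator that helps to set the borders of other gap genes. Its RNA is both supplied by the mother and made by the embryo under Bicoid, from different promoters. tll encodes an orphan nuclear receptor that is switched on at the embryonic poles by Torso receptor signalling, and later acts in the brain. cad encodes a homeodomain activator of posterior genes; its maternal RNA is present throughout the egg, and Bicoid blocks its translation at the anterior.

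TBP peaks in the 3 windows were of middle to low score and none was wide. Each peak in the list has a score that the authors deposited without naming its scale, so scores are compared here only within the list. Medians of scores and differences between them are descriptive and have no known unit. The 5 scores ran from 8.19 to 46.17, with a median of 21.88, and the 5 widths from 317 to 944 bp, with a median of 586 bp. Across all 3106 peaks of 3R and 2L the medians were 29.34 for score and 749.5 bp for width. Of the 5 peaks, 2 scored above the median of their own arm, the stronger hb peak and the stronger cad peak. Only 1, the stronger cad peak, was wider than its arm's median.

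None of the 5 peaks was among the strongest or widest of its arm. Above the 75th percentile of score there were 0 of 3 on 3R, where 25.0% of all peaks pass this limit of 59.71, and 0 of 2 on 2L, where 25.0% pass 57.13. By width the count was again 0 of 3 on 3R (25.0% of all peaks exceed 1362 bp) and 0 of 2 on 2L (24.9% exceed 1300 bp). Above the 90th percentile it was necessarily 0 as well, against 9.96% of all 3R peaks by score and 10.0% by width, and 10.0% of 2L peaks by either. With 5 peaks, such shares leave a count of 0 unremarkable, and nothing particular to the 3 genes is read from it.

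**Figure D1:**
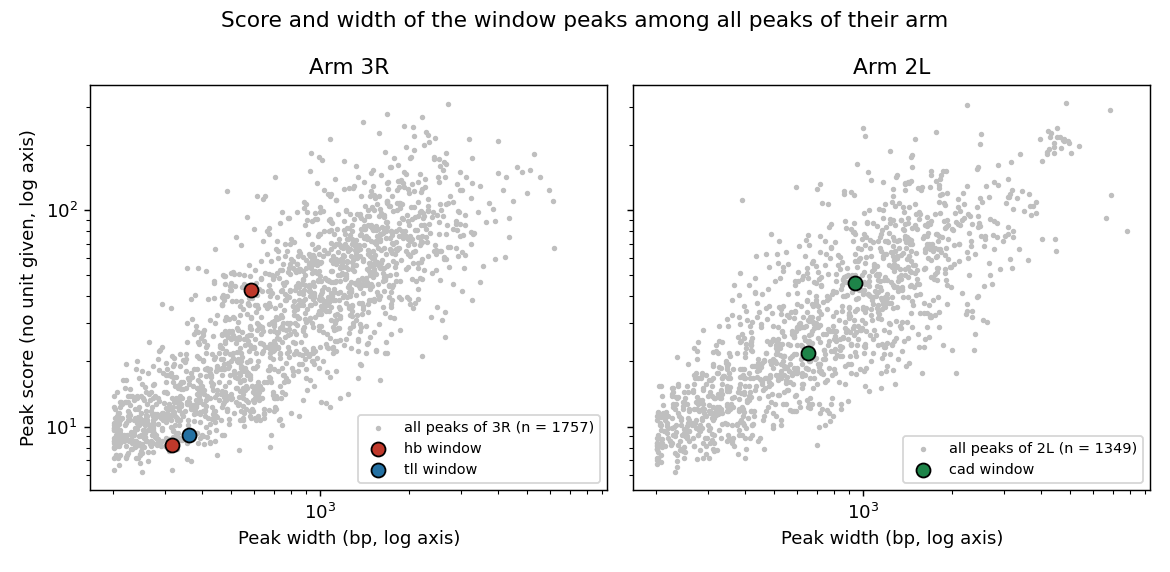
Score against width, both on log axes, for every peak of 3R (left, n = 1757) and 2L (right, n = 1349) in grey, with the peaks of the hb, tll and cad windows in colour. The weaker hb peak and the tll peak lie near the bottom of the 3R cloud, the stronger hb peak lies towards its upper left side, and both cad peaks lie inside the 2L cloud.

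At hb the 2 peaks differed widely in score. The stronger one, at 3R 4523331 to 4523916, scored 42.92 and was 586 bp wide. It ranked 670 of the 1757 peaks on 3R by score and 1071 by width. The weaker hb peak, at 3R 4506449 to 4506765, scored 8.19 and was 317 bp wide, which put it at rank 1712 by score and 1478 by width. Of the peaks on the arm, 61.4% scored below the stronger hb peak and 2.56% below the weaker one. The weaker peak lay 13.4 kb below the centre of the window and the stronger one 3.62 kb above it.

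The stronger hb peak was narrow for its score. The 50 other 3R peaks nearest to it in score had a median width of 1020 bp, so its width was 0.574 times theirs, and only 7 of the 50 were narrower. Read the other way, the 50 peaks of most similar width had a median score of 23.03, and 44 of them scored below 42.92. The weaker hb peak showed the opposite order. Its 317 bp were 1.27 times the median of the 50 peaks nearest in score (249 bp), 39 of which were narrower. The order by score and the order by width therefore part at both hb peaks, in opposite directions.

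The tll window held a single weak peak. It lay at 3R 26677654 to 26678015, 0.335 kb from the window's centre, scoring 9.11 over a width of 362 bp. It ranked 1632 of 1757 by score on 3R, a place it shared with 12 other peaks of the same score, and 1398 by width. Only 6.43% of the peaks on the arm scored lower and 20.4% were narrower. Like the weaker hb peak it was wide for its score, at 1.41 times the median of its 50 nearest in score (257 bp), and 40 of these were narrower. The lowest score in the whole list was 6, so the tll peak and the weaker hb peak both stand near the bottom of what was listed.

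The cad window had the highest score and the greatest width among the 5 peaks. Its stronger peak, at 2L 20787292 to 20788235, scored 46.17 with a width of 944 bp, rank 446 of 1349 on 2L by score and 536 by width. The other cad peak, at 2L 20770408 to 20771061, scored 21.88 with a width of 654 bp, rank 810 by score and 749 by width. Thus 66.9% of the peaks on 2L scored below the stronger cad peak and 39.5% below the weaker one. Both had widths near those of similar peaks. The ratio to the 50 nearest in score was 0.842 for the stronger peak (median 1122 bp) and 1.02 for the weaker (median 641.5 bp). The stronger cad peak lay 10.3 kb above the window centre and the weaker 6.77 kb below it.

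By leading peak the order of the loci was cad, hb, tll. The leading peaks of cad (46.17) and hb (42.92) were close in score and lay on different arms, with 66.9% and 61.4% of their arm's peaks below them. No spread between libraries is known that could separate these 2. The leading peak of tll (9.11) stood far lower, beside the weaker hb peak (8.19).

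The number of peaks per length was close to the mean of the arm at hb and cad and below it at tll. At hb there were 0.667 peaks per 10 kb and at tll 0.4, against 0.63 over the whole of 3R, and at cad 0.571 against 0.588 over 2L. Each arm was also divided, from its first to its last peak, into consecutive windows of the same length as the locus window. On 3R, 46.2% of 930 such windows held at least as many peaks as hb, and 37.3% held none. For tll 58.9% of 1116 windows held at least 1 peak. For cad 47.5% of 655 windows on 2L held at least 2 peaks, and 35.4% held none. The median count was 1 for each window length, equal to the count at tll and below those at hb and cad. The highest score in the window was matched or exceeded in 45.5% of these windows for hb, 58.4% for tll and 41.2% for cad.

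**Figure D2:**
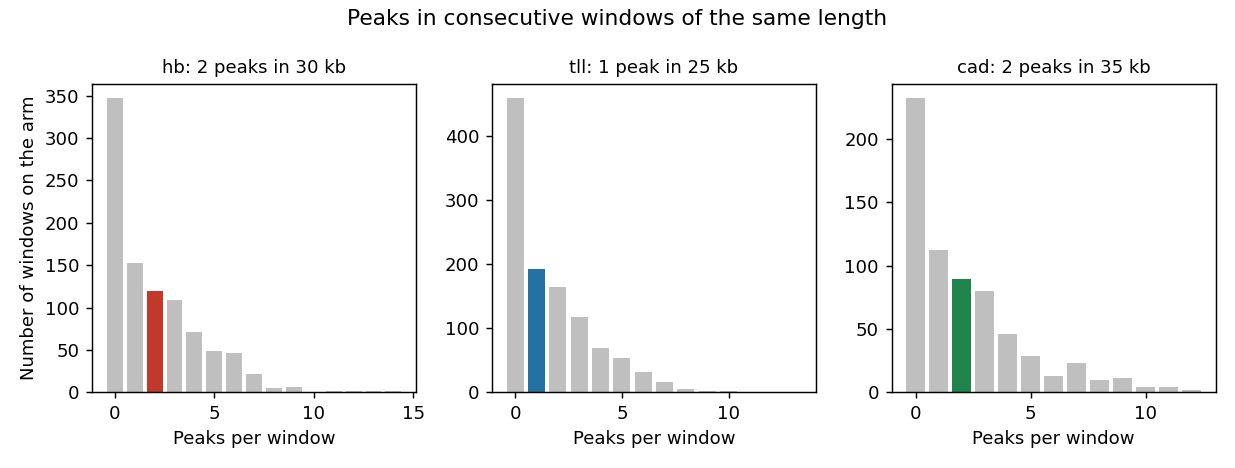
Number of peaks (horizontal axis) in consecutive windows of 30, 25 and 35 kb along 3R, 3R and 2L, with the number of windows on the vertical axis. The coloured bar marks the count found at hb (2 peaks), tll (1) and cad (2); windows with no peak are the most frequent in each panel.

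The peaks covered less of the windows than peaks cover of the arms on average. Coverage was not compared with single windows of the same length, of which 35.4% to 41.1% held no peak. No depletion is read from it. At hb they covered 903 bp (3.01% of the window) and at tll 362 bp (1.45%), against 6.3% of 3R. At cad they covered 1598 bp, or 4.57% against 5.98% of 2L. The median peak width followed the same order, at 362 bp in the tll window, 451.5 bp at hb and 799 bp at cad.

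Most gaps within and beside the 3 windows were longer than the median gap of their arm. A window with 1 or 2 peaks must hold long stretches without a peak. The median window of the same length held 1 peak for each locus, so such gaps are not particular to these windows. The median gap between neighbouring peaks was 4399 bp on 3R and 4695.5 bp on 2L. The 2 hb peaks were separated by 16565 bp with no peak, longer than 78.5% of the 1756 gaps on 3R. Above the stronger hb peak came another 17170 bp without a peak (longer than 78.9%). At tll the stretch below the peak was 30888 bp, 7.02 times the arm's median and rank 207 of its 1756 gaps, and the stretch above it was 18224 bp. The 2 cad peaks lay 16230 bp apart (longer than 76.3% of the 1348 gaps on 2L).

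Distance to the nearest neighbour gives the same picture per peak. It was 18224 bp for the tll peak, and 94.7% of the peaks on 3R had a closer neighbour. It was 16565 bp for the stronger hb peak (93.8% had a closer one) and 11365 and 8531 bp for the weaker and stronger cad peaks (87.9% and 83.3% on 2L). For the weaker hb peak it was 3319 bp, and 66.3% of the peaks on 3R had a closer neighbour. That distance was below the arm's median gap, unlike those of the other 4 peaks, and the neighbour lies outside the window. A nearest-neighbour distance is the smaller of the gaps on either side, so the median of single gaps is not a like measure.

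Stronger and wider TBP peaks lay just outside the hb and cad windows. Below hb the nearest was 3R 4501665 to 4503129, 1870 bp from the window, 1465 bp wide and scoring 56.89. Above hb it was 3R 4541087 to 4542632, 6086 bp away, 1546 bp wide and scoring 84.34. At cad the peak 2L 20757584 to 20759042 ended 957 bp below the window (score 72.79, width 1459 bp), and the peak 2L 20796767 to 20798135 began 1766 bp above it (score 81.96, width 1369 bp). All 4 outscored every peak inside their window. At tll both neighbours were narrow: 208 bp with a score of 7.23 at 18234 bp below the window, and 293 bp with a score of 23.36 at 6239 bp above it.

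Within 100 kb on either side the median peak was stronger and wider than the leading peak at hb, stronger and wider than the single peak at tll, and weaker and narrower than the leading peak at cad. Around hb there were 16 further peaks with a median score of 46.75 and a median width of 1246 bp; 9 of them outscored the stronger hb peak and 12 were wider than it. All 16 scored above the weaker hb peak, the lowest of them at 8.27. Around tll there were 15, with a median score of 20.44 and a median width of 462 bp, and 12 outscored the tll peak. Around cad there were 14, with medians of 27.87 and 927 bp. Of these, 6 outscored the stronger cad peak and 10 the weaker one. Counted over the window and both sides together, the 3 regions had 18, 16 and 16 peaks, against medians of 14, 14 and 12 in consecutive stretches of the same length. Stretches with at most as many peaks numbered 83 of 121 for hb, 76 of 124 for tll and 62 of 97 for cad. Higher counts were therefore not rare.

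**Figure D3:**
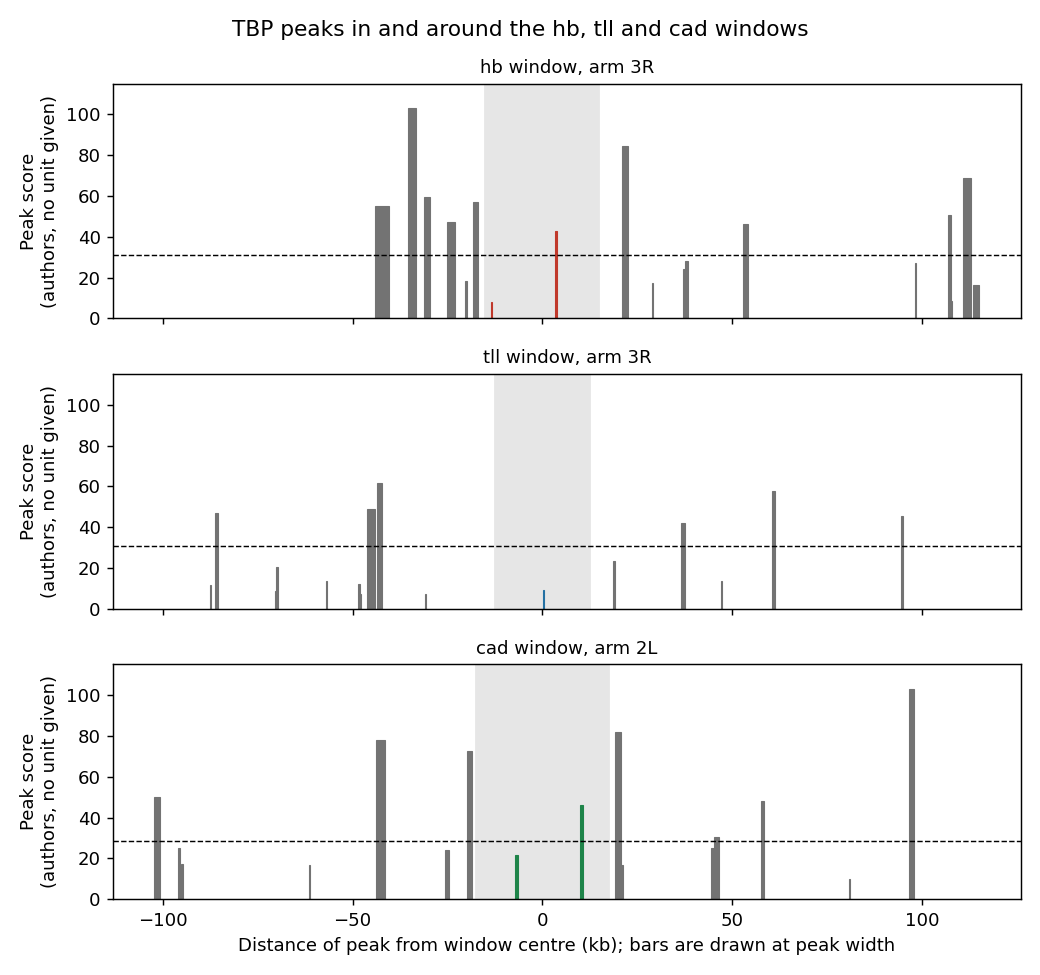
Each bar is a TBP peak, drawn at its width with a thin outline, with its score (no unit given) as height and its distance from the window centre in kb on the horizontal axis. Coloured bars lie in the shaded hb, tll or cad window, grey bars within 100 kb of it, and the dashed line is the median score of the arm (30.89 on 3R, 28.43 on 2L); the peaks beside the hb and cad windows are taller than those within.

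The nearest peak above the 75th percentile of its arm by score was 957 bp from the cad window (score 72.79), 6086 bp from the hb window (84.34) and 29672 bp from the tll window. The last of these, at 3R 26633999 to 26635327, scored 61.61 with a width of 1329 bp. It was the highest score within 100 kb of tll, whereas the regions around hb and cad reached 103.04 and 102.76.

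Several of the neighbouring genes differ in kind from the 3 patterning genes. In the RefSeq gene order of release 6, used here for names and order alone, hb lies between CG44227 and Cks85A, which encodes a small subunit of cyclin-dependent kinases. tll lies between CG15544 and Cpr100A, a cuticular protein gene. cad lies between dia, which encodes the formin Diaphanous, and Pomp, which encodes a proteasome assembly factor. Which of these genes, if any, the peaks inside or beside the windows belong to was not tested.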

How the data were processed

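One peak list for the whole series was analysed, with 1 line per peak. Per the file headers, the coordinate system is FlyBase release 5, and each line gives MACS, a peak caller, as its source. Named in the submitters' processing notes, with no role for any, are the build BDGP5, MACS2, BWA and CASAVA (1.7.0.2 and 1.7.0.3). Not given in the sources used here were how strict the calling was, how duplicate or multiply mapped reads were handled and whether replicates were pooled. Each can add or remove weak peaks or split wide ones. The authors deposited a score for each peak and no scale for it. Depth is unknown, and arm lengths were replaced by the span from first to last peak.

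Rank 1 is the highest score or the greatest width, and ties take the better rank. Gaps run from the end of a peak to the start of the next. Every peak overlapping a window was named, with its nearest neighbours outside, by rule. The 3 windows, the gene names and the descriptions were chosen with earlier results of these data known. No promoter or peak sequence was used, and motif searches and other segmentation genes, which need release 5 annotation or sequence, were not analysed here. Functions were checked on simulated lists. Python 3.11.15, numpy 2.4.6, pandas 2.3.3, scipy 1.17.1 and matplotlib 3.10.9 were used.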

Additional observations from a re-analysis of the deposited data

How the results depend on the processing

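No paired analysis was possible because the list carries no values per library, and no replicate could be left out for the same reason. Of 69 alternative values, 43 stayed within their limits (a count within 1.5 times, a share within its 95% exact binomial interval, a median equal) and 26 moved; no test was involved. The cause was not tested beyond what each change does by construction. With windows shortened by 5 kb at both ends, hb kept 1 peak (score 42.92, width 586 bp), and tll and cad were the same. With windows lengthened by 5 kb, hb had 4 peaks (median score 30.56, median width 630 bp) and cad 5 (46.17 and 944 bp); the added peaks scored 56.89 and 18.2 at hb and 72.79, 81.96 and 16.69 at cad. Counting only peaks above the arm's median score left 1 at hb (42.92, 586 bp), 0 at tll and 1 at cad (46.17, 944 bp), against main medians of 25.55 and 451.5 bp at hb and 34.02 and 799 bp at cad. Merging peaks within 1 kb joins none of the 5. Elsewhere it joins peaks into fewer and wider ones, each with the highest score of its parts. It left 1313 peaks on 3R and 1003 on 2L. The share of the arm below the leading peak became 52.2% by score and 25.8% by width at hb. It became 3.2% and 11.3% at tll, and 59.9% and 46.9% at cad. Ranked among the whole list, 62.9% of peaks were narrower than the leading cad peak, against 60.2% on its arm. Among windows with at least 1 peak, 73.8% held at least as many as hb, 73.5% as cad and, by construction, 100% as tll. Removing the run of wide peaks on 2L left 1326 of 1349 peaks, and none was removed on 3R. The shares at cad became 68.1% by score and 61.2% by width. So small a removal could not move a share beyond its interval. Above the 90th percentile of score or width the count was necessarily 0, as it was 0 above the 75th. How weak a site could be listed depends on a depth that is unknown, and nothing is known here of sites below the lowest listed score of 6.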
